A study of Homo sapiens with 15 samples.

Results

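Glutathione, the tripeptide of glutamate, cysteine and glycine, is the most abundant thiol of most cells and the electron donor with which glutathione peroxidases reduce hydrogen peroxide and lipid hydroperoxides. Glutamate-cysteine ligase, a catalytic subunit (GCLC) with a modifier subunit (GCLM), makes γ-glutamylcysteine in the rate-limiting step, and glutathione synthetase (GSS) adds the glycine. Glutathione reductase (GSR) returns the oxidized disulfide to glutathione with NADPH, and γ-glutamyltransferase 1 (GGT1), an enzyme of the outer cell surface, cleaves extracellular glutathione so that its amino acids can be taken up again. In lung epithelium this system is one of the main defenses against oxygen. The 10 genes described here were fixed by name: the peroxidases GPX1, GPX2, GPX3, GPX4 and GPX8, and GSR, GSS, GCLC, GCLM and GGT1. All 10 were found by symbol among the 43388 genes with counts, and all 10 passed the filter on low counts.

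RNA-seq was performed on A549 cells, an established human lung adenocarcinoma line of epithelial origin, wild type in every group. Cells received 1e-05 mM ATRA (all-trans retinoic acid, a form of vitamin A that binds nuclear retinoic acid receptors), or its ethanol vehicle for 24 hours. The labels of 4 libraries name neither, although the protocol given for all libraries describes a pretreatment, so these form groups of their own, called "neither". Cells were then kept for 72 hours in hyperoxia (95% O2) or normoxia (21% O2). At each oxygen exposure there were 2 vehicle, 3 ATRA and 2 neither libraries, 14 in all, and 1 of the 15 libraries had conflicting labels and entered no comparison. The model is a single adult tumor line in culture, and no label says that replicates came from separate cultures, so p-values measure only the spread between these libraries.

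The 14 libraries held 2642377 to 5605072 counts on genes, so that 3 counts, the smallest number taken as a signal, correspond to 0.535 to 1.14 CPM. Values are given as normalized read counts in CPM, counts relative to the size of the library, scaled by the TMM method (trimmed mean of M-values). The first hyperoxia library with neither stood apart: it had counts for 12657 genes, against 16465 to 20108 in the other 13 libraries, and differed from its replicate by a chi-square per degree of freedom of 31.5, the highest of all replicate pairs. None of the 10 genes was at 0 counts in it. Of the epithelial markers, KRT8 was present in every library at 1133 to 5913 CPM, whereas EPCAM was at 0 to 4.80 CPM. Among markers of alveolar type II cells, SFTPA1 had no count and NKX2-1 reached 3 counts in 0 libraries. SFTPB and SFTPD reached 3 counts in 2 libraries each and SFTPC in 1. Over 5 epithelial markers (EPCAM, KRT8, KRT18, KRT19, CDH1) the summed level was 1685 to 4203 CPM in hyperoxia and 5743 to 9562 CPM in normoxia. KRT8 and KRT18 carried most of this sum. Over 3 leukocyte markers it was 60.4 to 103 CPM in hyperoxia and 17.4 to 32.8 CPM in normoxia. Of these, PTPRC and CD3E had no count above the floor and CD68 carried the sum. The marker sums therefore moved with oxygen exposure, as did some of the members below, and the part of the markers in the results was not tested. In such bulk samples, a change in the number of cells of one state and a change in RNA per cell cannot be told apart.

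Among the 5 peroxidases, 4 are selenoproteins: their catalytic residue is selenocysteine, inserted at a UGA codon that elsewhere means stop. The codon and its flanks are shown because they mark the members whose translation depends on selenium. They were read from the canonical GENCODE 44 transcripts, 15 bases to each side, 5′ to 3′ on the coding strand, with the catalytic codon in capitals and positions on GRCh38.
GPX1 (codon 49, chr3:49358117-49358149, minus strand): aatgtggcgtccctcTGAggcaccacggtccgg
GPX2 (codon 40, chr14:64942592-64942624, minus strand): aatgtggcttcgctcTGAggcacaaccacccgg
GPX3 (codon 73, chr5:151025454-151025486, plus strand): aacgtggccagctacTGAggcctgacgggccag
GPX4 (codon 73, chr19:1105388-1105420, plus strand): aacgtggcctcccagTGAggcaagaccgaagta
GPX8 (codon 79, chr5:55161009-55161041, plus strand): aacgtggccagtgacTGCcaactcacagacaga
GPX1, GPX2, GPX3 and GPX4 each carry 1 in-frame TGA before the stop codon. GPX8 carries none and has TGC, a cysteine codon, at the matching place.

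The 5 peroxidases differed in their response to oxygen. GPX1, the ubiquitous cytosolic and mitochondrial enzyme, was 8.69-fold higher in hyperoxia than in normoxia with vehicle. GPX2, the enzyme best known from the gastrointestinal epithelium, was 2.59-fold lower, and GPX8, a membrane protein of the endoplasmic reticulum, was 2.12-fold lower. GPX4, which reduces lipid hydroperoxides in membranes, and GPX3, the secreted plasma enzyme, did not pass the test in this comparison.

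**Figure D1:**
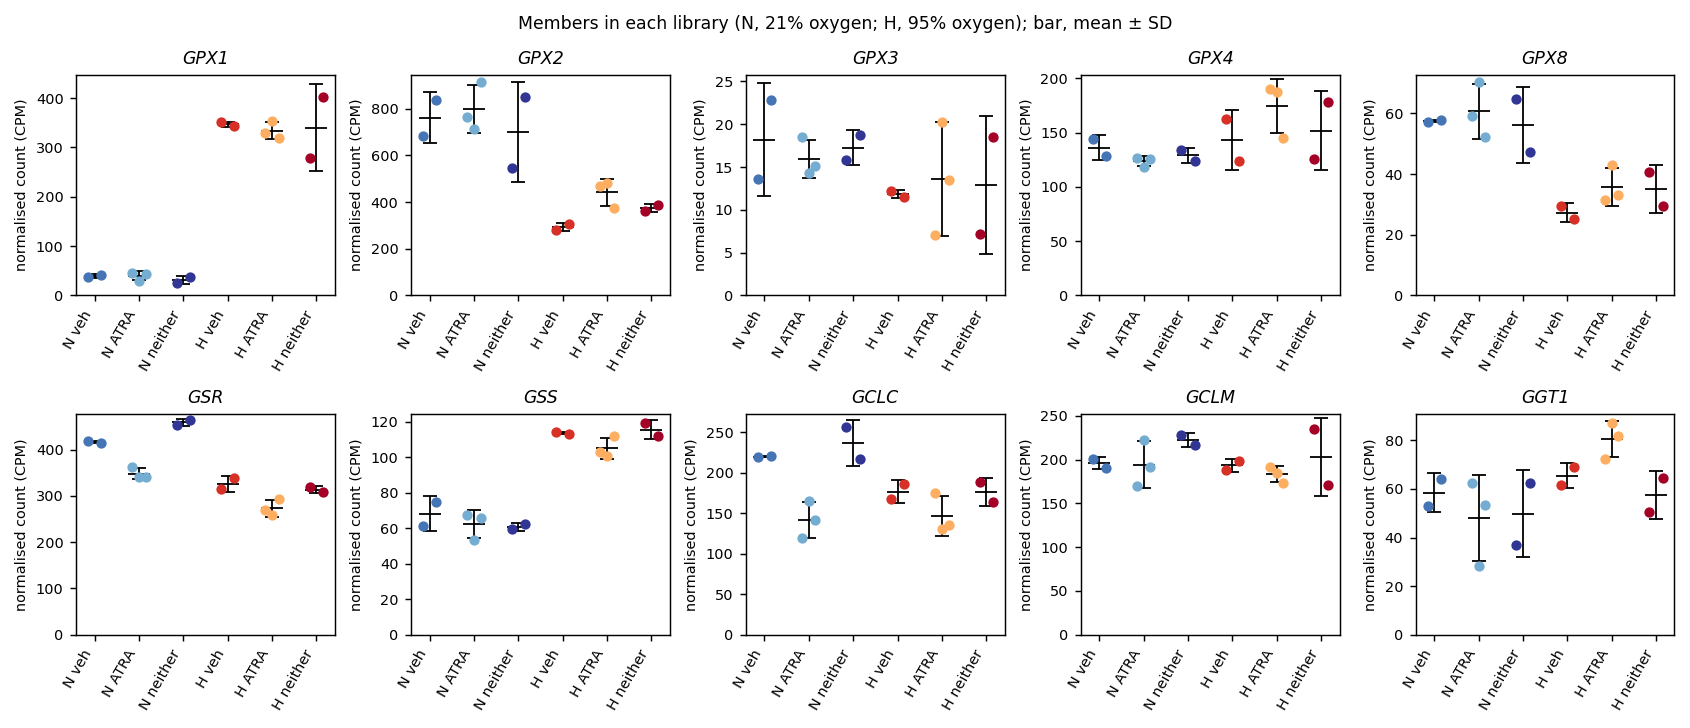
Normalized read counts (CPM, linear axes from 0) of the 10 genes in each of 14 libraries. Normoxia is in blue, and hyperoxia in red, or in orange with ATRA. Points are libraries and bars the mean ± SD of each group. GPX1 lies at 277 CPM or above in every hyperoxia library and at 45.1 CPM or below in every normoxia library, and GCLM covers the same range in both.

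GPX1 lies on chromosome 3 (49357176 to 49358353, minus strand). In normoxia its normalized read counts were 37.2 and 42.0 CPM with vehicle, 45.1, 29.0 and 44.2 CPM with ATRA and 25.9 and 37.4 CPM with neither. In hyperoxia they were 350 and 343 CPM with vehicle, 328, 354 and 319.7 CPM with ATRA and 277 and 402 CPM with neither. The lowest hyperoxia library stood far above the highest normoxia library, whatever the pretreatment. The vehicle means were 39.6 ± 3.43 CPM in normoxia and 347 ± 4.98 CPM in hyperoxia (SD, n = 2 libraries each), a log2 fold change of 3.12 with a standard error of 0.18 (adjusted p = 1.68e-10, edgeR). It was 3.07 with ATRA (standard error 0.15, adjusted p = 6.19e-12, edgeR), an 8.40-fold difference, and 3.43 with neither (standard error 0.23, adjusted p = 3.34e-07, edgeR), a 10.7-fold difference. GPX1 stayed past the threshold in these 3 comparisons in every alternative and with any 1 library left out.

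GPX2 lies on chromosome 14 (64939158 to 64942745, minus strand), wholly inside the read-through gene CHURC1-FNTB on the other strand, which held 9.54% as many counts. Its normalized read counts in normoxia were 685 and 839 CPM with vehicle, 766, 715 and 915 CPM with ATRA and 548 and 851 CPM with neither. In hyperoxia they were 282 and 306 CPM with vehicle, 467, 481 and 377 CPM with ATRA and 362 and 389 CPM with neither. All 7 hyperoxia libraries were below all 7 normoxia libraries, and among the hyperoxia libraries the vehicle pair was lowest. The log2 fold change between oxygen exposures was -1.38 with vehicle (standard error 0.15, adjusted p = 1.33e-06, edgeR), -0.86 with ATRA (standard error 0.12, adjusted p = 2.99e-05) and -0.90 with neither (standard error 0.19, adjusted p = 0.00486). The call with neither was lost without the second normoxia library (log2 fold change -0.59, adjusted p = 0.0691) and with only the groups compared (adjusted p = 0.202).

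GPX8 lies on chromosome 5 (55160171 to 55167297, plus strand) inside CDC20B, which is on the other strand and had 0 counts. It was read at 57.3 and 57.8 CPM with vehicle, 59.2, 70.5 and 52.3 CPM with ATRA and 64.9 and 47.3 CPM with neither in normoxia. In hyperoxia the values were 29.4 and 25.1 CPM with vehicle, 31.4, 42.9 and 33.1 CPM with ATRA and 40.7 and 29.6 CPM with neither. The exposures did not overlap over the 14 libraries. GPX8 fell with vehicle (log2 fold change -1.09, standard error 0.22, adjusted p = 0.00134, edgeR) and with ATRA (-0.78, standard error 0.18, adjusted p = 0.00325), while the libraries with neither gave -0.67 (standard error 0.25, adjusted p = 0.0873), which missed the threshold. Without the first hyperoxia library with neither it passed (-0.93, adjusted p = 0.0441).

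GPX4 lies on chromosome 19 (1103994 to 1106779, plus strand). Its normoxia values ranged from 119 to 144 CPM over 7 libraries. In hyperoxia it was read at 162 and 124 CPM with vehicle, 189.8, 187 and 145 CPM with ATRA and 126 and 178 CPM with neither, so the exposures overlapped. With ATRA it rose 1.41-fold (log2 fold change 0.49, standard error 0.13, adjusted p = 0.0104, edgeR), a call that was lost without the second hyperoxia ATRA library (adjusted p = 0.0583). With vehicle the log2 fold change was 0.07, with a 95% confidence interval from -0.27 to 0.41.

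GPX3, on chromosome 5 (151020591 to 151028988, plus strand), had the lowest counts of the 10 genes. Its values were 7.03 to 20.3 CPM in the 7 hyperoxia libraries and 13.6 to 22.9 CPM in the 7 normoxia libraries. Replicates differed by more than the group means: the 3 hyperoxia ATRA libraries were at 7.03, 20.3 and 13.5 CPM, while the ATRA means were 15.99 CPM in normoxia and 13.6 CPM in hyperoxia. GPX3 was called in no comparison with all libraries, but with neither it passed without the second hyperoxia library (log2 fold change -1.31, adjusted p = 0.0457, edgeR), and the log2 fold change with vehicle was -0.65 (standard error 0.41, adjusted p = 0.331, edgeR).

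The ratio of GPX1 to GPX2 shows how the balance within the family differed. GPX1 counts were 0.0406 to 0.0589 times those of GPX2 in the 7 normoxia libraries. In hyperoxia the ratio of counts was 1.12 to 1.24 with vehicle, 0.702 to 0.849 with ATRA and 0.766 to 1.03 with neither. The summed level of the 5 peroxidases moved far less: with vehicle it was 1013 ± 108 CPM (SD, n = 2) in normoxia and 823 ± 18.7 CPM in hyperoxia, and with ATRA 1039 ± 104 CPM (SD, n = 3) and 999 ± 101 CPM. The groups with neither gave 933 ± 206 CPM and 915 ± 144 CPM (SD, n = 2 each), a difference within the spread of replicates.

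**Figure D2:**
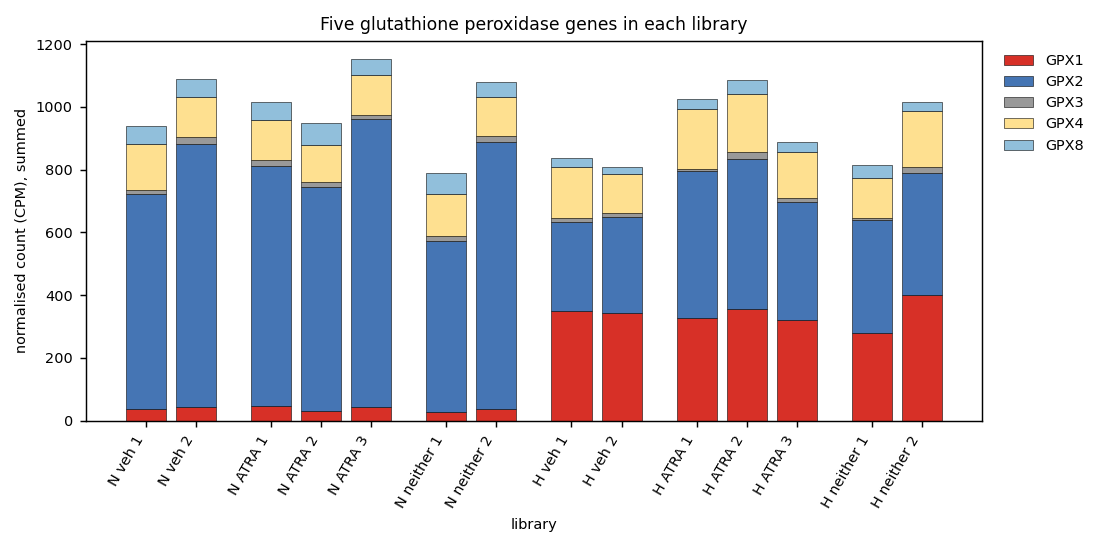
Stacked normalized read counts (CPM, axis from 0) of GPX1, GPX2, GPX3, GPX4 and GPX8, 1 bar for each of the 14 libraries in 6 groups. GPX2 fills most of each normoxia bar, while in hyperoxia GPX1 and GPX2 are of similar height. The vehicle bars total 836 and 810 CPM in hyperoxia and 937 and 1089.5 CPM in normoxia.

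Levels of different genes were compared per kilobase of the canonical transcript, whose lengths run from 851 bases (GPX4) to 4883 bases (GCLM). In normoxia with vehicle the level per kilobase was highest for GPX2 (826 CPM per kilobase), followed by GPX4 (160.1), GSR (137), GCLC (58.1), GPX1 (44.1), GCLM (40.1), GSS (35.7), GGT1 (22.3), GPX8 (15.4) and GPX3 (11.4). In hyperoxia with vehicle GPX1 stood first at 386 ± 5.54 CPM per kilobase (SD, n = 2) and GPX2 second at 319 ± 18.7. With ATRA GPX2 kept the first place at 479 ± 61.4 CPM per kilobase (SD, n = 3), before GPX1 at 371 ± 19.8. With neither the first and second places were GPX2 at 407 ± 20.3 and GPX1 at 378 ± 97.7 CPM per kilobase (SD, n = 2), which do not differ beyond their spread. GPX4 and GSR came next after the leading genes in hyperoxia with vehicle, at 168 and 107 CPM per kilobase.

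Of the synthesis genes GCLC, GCLM and GSS, hyperoxia raised only GSS in the comparisons with vehicle, ATRA and neither. GSS lies on chromosome 20 (34928432 to 34956027, minus strand) and shares 160 bases with MYH7B, which held 3.12% as many counts. GSS was read at 61.2 and 75.0 CPM with vehicle, 67.6, 53.4 and 65.8 CPM with ATRA and 59.3 and 62.1 CPM with neither in normoxia. Hyperoxia gave 114 and 113 CPM with vehicle, 103, 101 and 112 CPM with ATRA and 119 and 112 CPM with neither. All 7 hyperoxia libraries exceeded all 7 normoxia libraries. The log2 fold change was 0.73 with vehicle (standard error 0.17, adjusted p = 0.0037, edgeR), 0.75 with ATRA (standard error 0.14, adjusted p = 0.000416) and 0.93 with neither (standard error 0.17, adjusted p = 0.00136), or 1.66-fold, 1.69-fold and 1.91-fold. The vehicle call was lost without the first normoxia vehicle library (log2 fold change 0.57, adjusted p = 0.11), and the call with neither was lost with only the groups compared (adjusted p = 0.134).

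GCLC lies on chromosome 6 (53497341 to 53545101, minus strand) and GCLM on chromosome 1 (93885199 to 93909430, minus strand). GCLC was read in normoxia at 219 and 221 CPM with vehicle, 119, 165 and 141 CPM with ATRA and 257 and 217 CPM with neither. Its hyperoxia values were 167 and 187 CPM with vehicle, 176, 130.1 and 136 CPM with ATRA and 188 and 164 CPM with neither. Without ATRA every hyperoxia library was below every normoxia library, but with ATRA the exposures overlapped. Hyperoxia against normoxia did not pass the test for GCLC: the log2 fold change was -0.31 with vehicle (adjusted p = 0.225, edgeR), 0.06 with ATRA (adjusted p = 0.799) and -0.43 with neither (adjusted p = 0.115). The vehicle comparison of GCLC passed with only the groups compared (log2 fold change -0.32, adjusted p = 0.0208, edgeR). When the 4 hyperoxia libraries without ATRA were set against the 4 normoxia libraries without ATRA, GCLC also passed (adjusted p = 0.0235, edgeR).

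GCLM varied little. It was read at 170 to 228 CPM in the 7 normoxia libraries and at 172 to 235 CPM in the 7 hyperoxia libraries, the same range. Its log2 fold change between exposures was -0.02 with vehicle (95% confidence interval -0.31 to 0.28), -0.08 with ATRA (-0.32 to 0.16) and -0.13 with neither (-0.46 to 0.21). The ratio of GCLC to GCLM counts was 1.09 to 1.16 in normoxia with vehicle and 0.887 to 0.940 in hyperoxia with vehicle. With ATRA it was 0.703 to 0.742 in normoxia and 0.702 to 0.914 in hyperoxia.

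GSR, on chromosome 8 (30678066 to 30727846, minus strand), encodes the enzyme that regenerates glutathione. It was read in normoxia at 417 and 414 CPM with vehicle, 361, 341 and 339.9 CPM with ATRA and 453 and 464 CPM with neither. In hyperoxia the values were 314 and 338 CPM with vehicle, 269, 258 and 293 CPM with ATRA and 318 and 309 CPM with neither. The exposures did not overlap over the 14 libraries, although the highest hyperoxia and lowest normoxia libraries, 338 and 339.9 CPM, nearly met. GSR fell with ATRA (log2 fold change -0.34, standard error 0.10, adjusted p = 0.0174, edgeR) and with neither (-0.55, standard error 0.11, adjusted p = 0.00422). The ATRA call was lost without the first normoxia ATRA library (adjusted p = 0.0617), and the call with neither was lost with only the groups compared (adjusted p = 0.189). The vehicle comparison gave -0.35 (standard error 0.12, adjusted p = 0.0548, edgeR), which passed in 8 alternatives. Among these were DESeq2 (adjusted p = 0.00522), RLE size factors (0.0429, edgeR) and vehicle and neither together (0.00399, edgeR). In 4 of the 8, 1 ATRA library was left out.

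GGT1 lies on chromosome 22 (24583750 to 24628996, plus strand). LRRC75B, wholly inside it on the other strand, held 3.91% as many counts. The near-identical relatives of GGT1 held few counts over 14 libraries: GGT3P had 19, GGT2 6, GGTLC2 6, GGTLC1 3 and GGTLC3 0, against 3551 for GGT1. These counts do not show how many reads the counting could not place uniquely. GGT1 was read at 52.8 and 64.2 CPM with vehicle, 62.6, 28.4 and 53.3 CPM with ATRA and 37.1 and 62.4 CPM with neither in normoxia. Hyperoxia gave 61.8 and 69.0 CPM with vehicle, 72.5, 87.2 and 81.7 CPM with ATRA and 50.5 and 64.5 CPM with neither. The 3 hyperoxia ATRA libraries were the highest of the 14. GGT1 rose with ATRA in hyperoxia against normoxia (log2 fold change 0.73, standard error 0.20, adjusted p = 0.0123, edgeR), a call lost in the fit of 14 libraries (adjusted p = 0.0683) and without the second hyperoxia ATRA library (adjusted p = 0.0502). It gave 0.15 with vehicle (standard error 0.24, adjusted p = 0.746) and 0.21 with neither (standard error 0.31, adjusted p = 0.675), and in both the exposures overlapped.

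**Figure D3:**
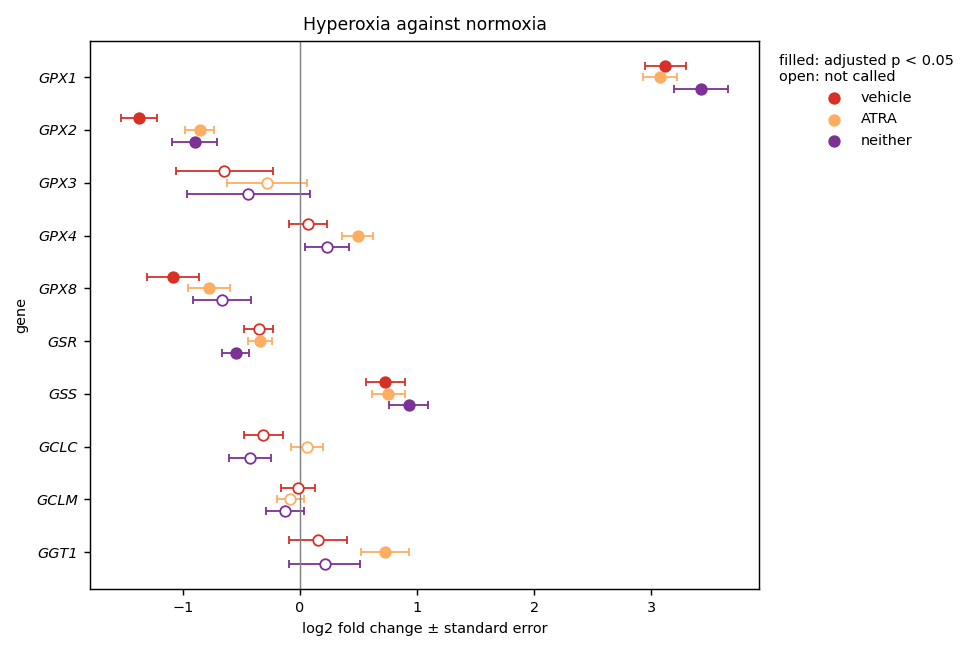
Log2 fold change of hyperoxia against normoxia for the 10 genes with vehicle, ATRA and neither (points, with bars of 1 standard error; filled where the Benjamini-Hochberg adjusted p is under 0.05). GPX1 lies at 3.07 to 3.43 in the 3 comparisons, GPX2 and GSS are filled in all 3 on opposite sides of 0, and GCLC and GCLM are open in all 3.

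In counts, hyperoxia against normoxia with vehicle called 4 of the 10 genes: GPX1 and GSS higher, and GPX2 and GPX8 lower. Among all 14957 genes tested in that comparison 17.5% were called, 8.68% higher and 8.81% lower. The median log2 fold change of the 10 genes was -0.16, beside 0.01 over all genes. With ATRA 7 of 10 were called, 4 higher (GPX1, GPX4, GSS, GGT1) and 3 lower (GPX2, GPX8, GSR), beside 22.7% of all genes, 11.4% higher and 11.3% lower. With neither 4 of 10 were called, GPX1 and GSS higher and GPX2 and GSR lower, beside 15.2% of 15339 genes, 7.57% higher and 7.58% lower. Without the first hyperoxia library with neither, 5 of 10 were called, GPX8 being added, beside 10.5% of 16503 genes. The ATRA groups had 3 libraries each and the other groups 2, so the number of calls does not compare the pretreatments. Over the 7 hyperoxia and 7 normoxia libraries, 5 of the 10 genes did not overlap (GPX1 and GSS higher, GPX2, GPX8 and GSR lower), beside 13.7% of all genes. Without the first hyperoxia library with neither these were again 5 of 10, beside 16.2% of all genes.

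Whether ATRA pretreatment altered these genes was asked at each oxygen exposure. In normoxia 1 of the 10 was called, GCLC, which ATRA lowered 1.55-fold (log2 fold change -0.64, standard error 0.15, adjusted p = 0.0351, edgeR), beside 1.25% of all genes. The 3 ATRA libraries, at 119, 165 and 141 CPM, lay below the vehicle pair at 219 and 221 CPM and below the pair with neither at 257 and 217 CPM. The call was lost against the pair with neither (adjusted p = 0.0575), in the fit of 14 libraries (adjusted p = 0.132) and without the first ATRA (adjusted p = 0.197), the third ATRA (0.0853), first vehicle (0.273) or second vehicle library (0.276). Of the remaining genes, GPX1 gave a log2 fold change of -0.01 (95% confidence interval -0.36 to 0.35) and GCLM -0.01 (-0.28 to 0.26).

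In hyperoxia 1 of the 10 was called, GPX2, which was 1.5-fold higher with ATRA than with vehicle (log2 fold change 0.59, standard error 0.14, adjusted p = 0.0282, edgeR), beside 2.21% of all genes. The 3 ATRA libraries, at 467, 481 and 377 CPM, lay above the vehicle pair at 282 and 306 CPM. Against the pair with neither, at 362 and 389 CPM, they overlapped and the log2 fold change was 0.23 (adjusted p = 0.486). The call was also lost in the fit of 14 libraries (adjusted p = 0.221) and without the first ATRA (adjusted p = 0.0803), second ATRA (0.123), first vehicle (0.445) or second vehicle library (0.182). The other peroxidases did not pass: GPX8 gave 0.38 (adjusted p = 0.443), GPX4 0.29 (adjusted p = 0.417) and GPX1 -0.06, with a 95% confidence interval from -0.35 to 0.24.

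GSR read lower with ATRA at both exposures without passing the test. The log2 fold change was -0.26 in normoxia (adjusted p = 0.476, edgeR) and -0.25 in hyperoxia (adjusted p = 0.317), with the ATRA libraries below both vehicle libraries each time. GGT1 gave -0.28 in normoxia and 0.29 in hyperoxia, neither of which passed.

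**Figure D4:**
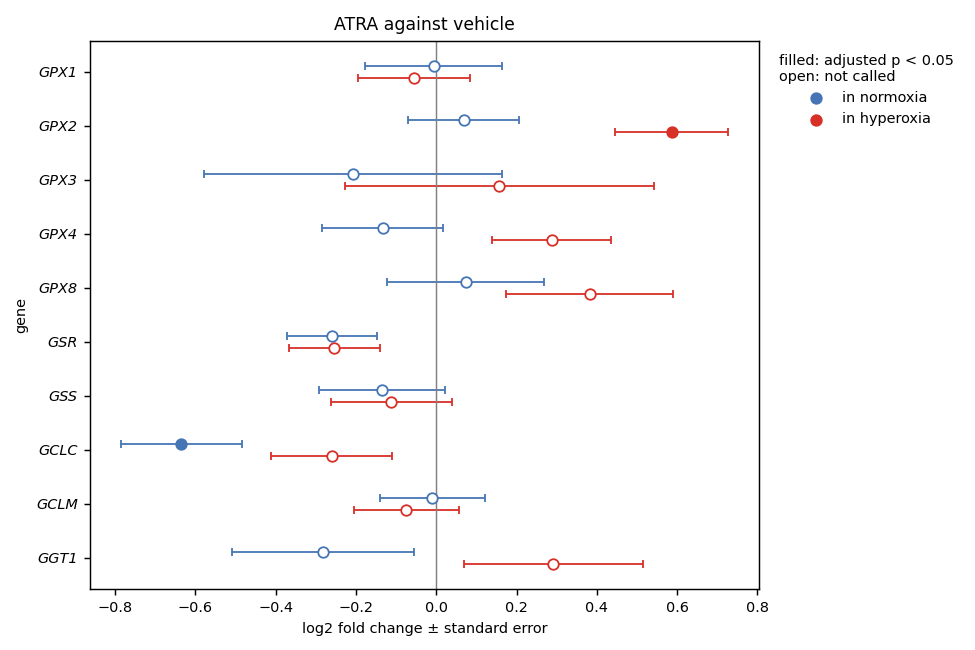
Log2 fold change of ATRA against vehicle for the 10 genes in normoxia (blue) and hyperoxia (red), with bars of 1 standard error and filled points where the adjusted p is under 0.05. Filled points are GCLC in normoxia at -0.64 and GPX2 in hyperoxia at 0.59, both of which are open when some single libraries are left out, and GPX1 and GCLM lie near 0 at both exposures.

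The interaction term asked whether the response to oxygen differed between ATRA and vehicle. It called 0 of the 10 genes with edgeR and 0 with DESeq2, beside 0.14% of all genes. At an unadjusted p under 0.05 in edgeR, 1 of the 10 was reached, GPX2, beside 1078 of all 14957 genes. The fall of GPX2 was smaller with ATRA by 0.52 on the log2 scale (standard error 0.20, unadjusted p = 0.0149, adjusted p = 0.531, edgeR). The term was 0.42 for GPX4 (unadjusted p = 0.059, edgeR), 0.57 for GGT1 (0.0854) and 0.37 for GCLC (0.0955). For GPX1 it was -0.05, with a 95% confidence interval from -0.51 to 0.41.

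The antioxidant response element, to which NRF2 binds, is known from genes of glutathione synthesis and from GPX2. Its core, TGACNNNGC on both strands, was searched in the RefSeq promoters (GRCh38.p14, 250 bases before to 50 after the start), which matched 8 of the 10 genes, with GSR and GSS not among them. The core was found in 2 of the 8, GPX2 and GCLM, beside 13.6% of all 27305 promoters and 15.04% of the 10963 promoters of tested genes. The windows are shown because these genes differ in their response to oxygen. They are written 5′ to 3′ on the strand of the gene, where the core lies on the opposite strand and so reads GCNNNGTCA, in capitals.
GPX2 (chr14:64942843-64942883, minus strand, core 122 bases before the start): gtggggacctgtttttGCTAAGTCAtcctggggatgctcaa
GCLM (chr1:93909440-93909480, minus strand, core 34 bases before the start): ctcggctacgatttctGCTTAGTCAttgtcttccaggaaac
With vehicle, GPX2 had a log2 fold change of -1.38 and GCLM of -0.02. A match is a description of letters and not of binding, and no match in GPX1, GPX3, GPX4, GPX8, GCLC or GGT1 says only that the core is not in these 300 bases.

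Likeness to GPX1 and GCLM was described by Pearson's correlation of log2 CPM over the 14 libraries, which share the 2 oxygen exposures, against 15338 genes. The 5 genes most like GPX1 were PRKAB1 (r = 0.993), PHLDA3 (0.992), CDKN1A (0.990), TNFRSF10B (0.990) and DDB2 (0.989). Those most like GCLM were FRA10AC1 (r = 0.846), BORCS5 (0.843), ZFAND5 (0.839), VPS13A (0.838) and NSMCE2 (0.836). Within the set, GPX1 went with GSS (r = 0.971) and opposite to GPX8 (-0.908), GPX2 (-0.858) and GSR (-0.809). GCLC was most like GSR (r = 0.691) and GCLM (0.667).

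Other genes of glutathione and selenium metabolism were taken as whole lists. Over these lists, 15 of the 60 genes tested were called in hyperoxia against normoxia with vehicle, beside 17.5% of all genes. In hyperoxia against normoxia with vehicle, 1 of 6 genes of cystine, cysteine and glycine supply was called higher and 3 lower. SLC7A11, the cystine importer, rose (log2 fold change 0.63, adjusted p = 0.00203, edgeR), although a gene on its other strand held 12.3% as many counts. SHMT2, which makes glycine from serine in mitochondria, fell (-0.96, adjusted p = 0.000156), as did SLC1A5, a glutamine carrier (-0.69, adjusted p = 0.00186). CBS, the first enzyme from homocysteine to cysteine, was called lower, but rested on few counts (3 and 25 in normoxia, 0 and 0 in hyperoxia), so no fold is given. With ATRA SLC7A11 (0.50, adjusted p = 0.00235) and SHMT2 (-0.79, adjusted p = 0.00012) moved in the same directions.

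Among 12 glutathione transferases tested, 1 was called higher and 2 lower with vehicle, beside 17.5% of all genes. MGST1, a microsomal transferase with peroxidase activity, rose (log2 fold change 0.69, adjusted p = 0.000553, edgeR), and GSTP1 (-0.94, adjusted p = 3.7e-05) and MGST3 (-0.78, adjusted p = 0.00361) fell. GSTP1 was also the one transferase called for ATRA against vehicle in hyperoxia, where it was higher with ATRA (0.64, adjusted p = 0.00613). In glutathione breakdown 1 of 7 tested genes was called, the aminopeptidase ANPEP (-2.06, adjusted p = 0.0261). The remaining peroxidases GPX5, GPX6 and GPX7 had 0 counts in all 14 libraries and were not tested.

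Of 8 genes of glutaredoxins and reduction, 1 was called higher and 1 lower with vehicle, beside 17.5% of all genes. TXNRD1, the cytosolic thioredoxin reductase, rose (log2 fold change 0.81, adjusted p = 0.000114, edgeR). PGD, an NADPH-producing enzyme of the pentose phosphate pathway, fell (-0.79, adjusted p = 0.000142). With ATRA TXNRD1 (0.63, adjusted p = 0.000167) rose and PGD (-0.52, adjusted p = 0.000849) fell, and GLRX3 rose (0.64, adjusted p = 0.00338). Of 5 genes of glutathione transport, the efflux pump ABCC4 was called lower with vehicle (-0.81, adjusted p = 0.000965) and with ATRA (-1.06), where the exporter ABCC5 rose (0.77, adjusted p = 0.00548).

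The list of selenocysteine incorporation also holds genes of selenium uptake and binding. Of its 10 genes 0 were called higher and 2 lower with vehicle, beside 17.5% of all genes. The other 8 were not called: SECISBP2, EEFSEC, SEPHS2, SEPSECS, PSTK, SCLY, TRNAU1AP and SELENBP1. SEPHS1 (log2 fold change -0.90, adjusted p = 0.00893, edgeR) is a relative of selenophosphate synthetase. LRP8 (-0.74, adjusted p = 0.00743), a receptor for selenoprotein P, overlaps a gene on the other strand with 22.03% as many counts. Among 12 other selenoproteins tested, SELENOI, an ethanolamine phosphotransferase, rose (0.52, adjusted p = 0.028) and MSRB1, a methionine sulfoxide reductase, fell (-1.38, adjusted p = 0.00478). With ATRA SEPHS1, LRP8 and SELENOI were called in the same directions, and SELENBP1, a selenium-binding protein, fell (-1.40, adjusted p = 0.033) and DIO2, a deiodinase, rose (0.69, adjusted p = 0.0321). The medians of these lists lay between -0.42, for supply and for the transferases, and 0.01, for the other selenoproteins, beside 0.01 over all genes.

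The same lists were counted with ATRA and with neither. With ATRA 14 of the 60 genes tested were called, beside 22.7% of all genes. With neither 13 of the 60 were called, beside 15.2%. With ATRA, 2 genes of glutaredoxins and reduction were called higher and 1 lower. The list of selenocysteine incorporation had 0 higher and 3 lower, namely SEPHS1, LRP8 and SELENBP1. Supply, the transferases and transport each had 1 gene higher and 1 lower, breakdown had 0 called, and the other selenoproteins had 2 higher and 0 lower. With neither, 1 transferase was higher and 3 were lower, reduction had 2 in each direction, and supply, breakdown and transport had 1 lower each. The other selenoproteins had 2 higher and 0 lower, and selenocysteine incorporation had 0 called with a median log2 fold change of -1.01. The first hyperoxia library with neither held 0 counts for 12 of the 60 list genes tested, against 0 to 1 in the other libraries. Without it, reduction and the other selenoproteins had 1 higher each, reduction and the transferases 2 lower each, selenocysteine incorporation 1 lower with a median of -0.60, and supply 0 called. For ATRA against vehicle 0 genes of these lists were called in normoxia by edgeR, beside 1.25% of all genes. At an unadjusted p under 0.05 there were 6 of the 60 tested, beside 1315 of all 14957 genes. In hyperoxia GSTP1 and DIO2 (log2 fold change 1.03, adjusted p = 0.0367, edgeR) were called, beside 2.21% of all genes.

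**Figure D5:**
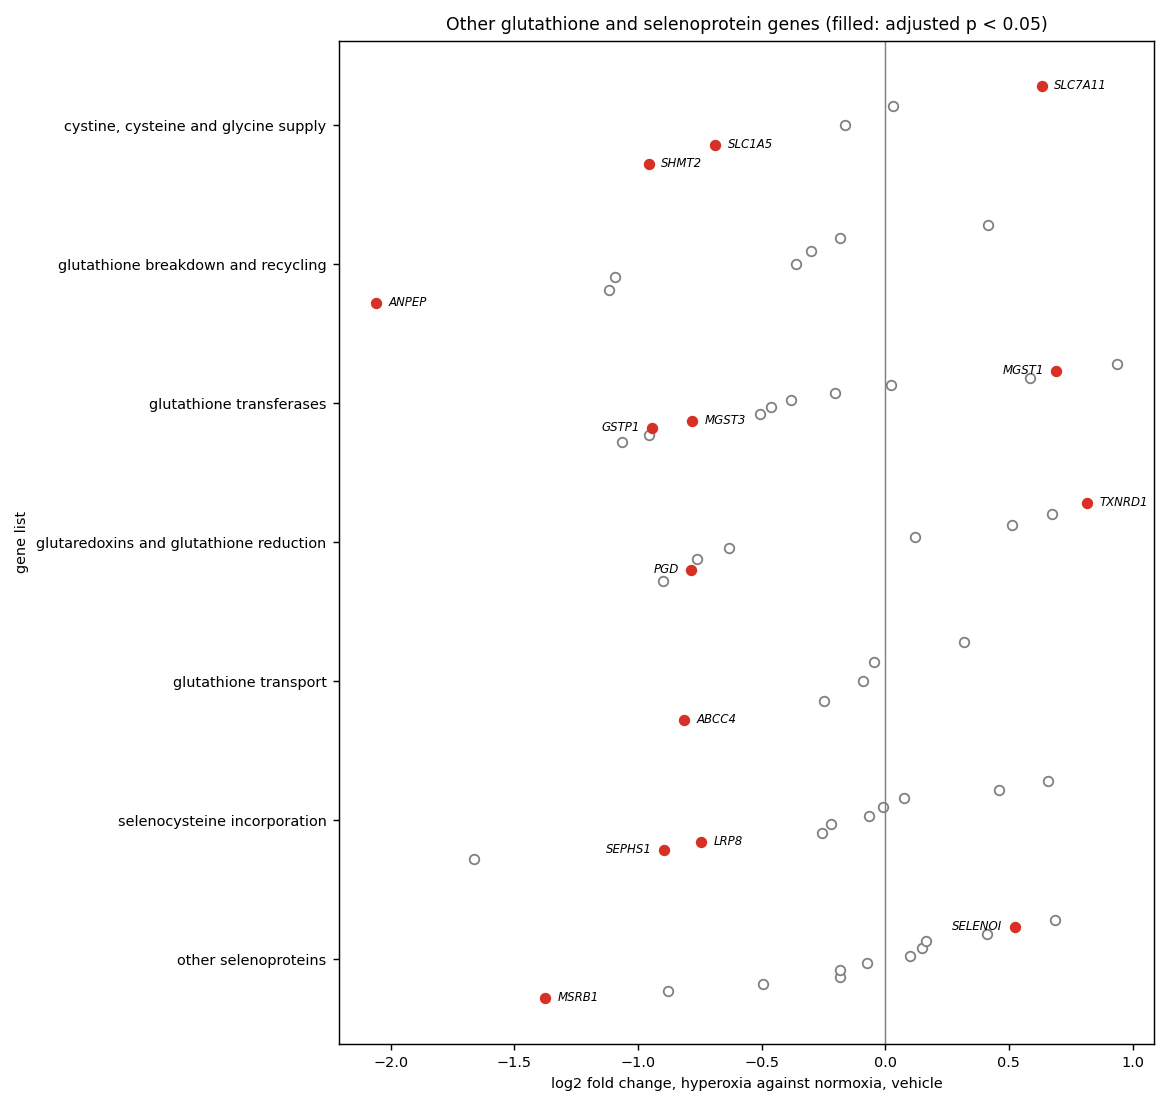
Log2 fold change of hyperoxia against normoxia with vehicle for the tested genes of 7 lists (1 point a gene; filled and named where the adjusted p is under 0.05). CBS, with 0 counts in both hyperoxia libraries, is left out, and named points lie on both sides of 0, from ANPEP at -2.06 to TXNRD1 at 0.81.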

How the data were processed

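RNA-seq libraries of A549 cells were prepared with a directional kit. Per the submitters' processing notes, Trimmomatic 0.38 was used for trimming, HISAT2 for alignment to hg38 and HTSeq for counting; the authors deposited the resulting raw counts of each gene symbol, not normalized. The strand setting and annotation release of the counting are not given in the sources used here. Lines for reads outside genes (48.6 to 55.3% without a feature) were left out of library sizes.

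Counts were tested with edgeR 4.0.16 in R 4.3.3 (TMM, filterByExpr with minimum count 10 and minimum total count 15, glmQLFTest). P-values were adjusted by the Benjamini-Hochberg method over all genes, with a threshold of 0.05. Comparisons of vehicle and ATRA used 10 libraries in 4 groups (14957 genes), and libraries with neither used 14 libraries in 6 groups (15339 genes). Groups came from the labels. Correlations used log2 CPM with a prior count of 2. The genes named are the 10 members, the 3 genes with the smallest p-values of each list in hyperoxia against normoxia, with vehicle or ATRA, where they passed, and the 5 genes most like GPX1 and GCLM. CBS, the genes of selenocysteine incorporation that were not called and the genes that overlap or resemble another were named after their values were seen. The members and lists were chosen with earlier results of these data known. One gene of the lists is not reported here and was left out of their counts. The procedure was tested on simulated data. Alternatives were DESeq2 1.42.0, RLE size factors, no filter, all 14 libraries, only the groups compared, the libraries with neither, vehicle and neither together, and leaving out each library. Counts of list genes and of non-overlapping genes without the first hyperoxia library with neither were added after seeing the data. Intervals and floors cover counting error or the spread between libraries only.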

Additional observations from a re-analysis of the deposited data

Results flagged for a closer look

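One library, with a title naming hyperoxia and a treatment field naming another procedure, entered no comparison. Its values, in CPM by library total, were above both normoxia vehicle libraries for 5 of the 10 genes, which is why they are listed. GPX1 was 369 CPM, against 37.6 to 43.5 CPM in the normoxia vehicle pair. GPX4 was 173 CPM (133 to 146), GSS 102 CPM (61.9 to 77.6) and GGT1 72.0 CPM (53.5 to 66.4). GCLM was 203 CPM, with a pair at 198 and 203 CPM. Below the pair were 4 members: GPX2 at 424 CPM (693 to 867), GSR at 362 CPM (422 to 429), GCLC at 190.2 CPM (222 to 228) and GPX8 at 25.1 CPM (58.0 to 59.8). GPX3, at 18.1 CPM, lay between them (13.7 to 23.7). These are values of 1 library, and no difference was tested.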

How the results depend on the processing

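No paired analysis was possible because the labels give no replicate numbers. Of 950 alternative values of single members, 878 kept their direction and side of the threshold, 12 came to pass it, 21 no longer passed it and 39 changed sign, none of them a called value. The cause of these changes was not tested. GPX1 and GSS kept their direction in hyperoxia against normoxia throughout.

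With single libraries left out, the number of members called was 3 to 5 with vehicle, 5 to 7 with ATRA and 3 to 5 with neither for oxygen, and 0 to 1 for ATRA at each exposure, while the interaction called 0. Fitting only the groups compared called 1 member with neither. Both the fit of 14 libraries and the comparison with the neither libraries called 0 members for ATRA at each exposure. The number of all genes called moved as well, as given below. Over settings it was 58 to 2978 with neither, 67 to 300 for ATRA in normoxia and 66 to 522 in hyperoxia. These counts of members are therefore not read as a result about the members.

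Log2 fold changes of hyperoxia against normoxia that changed sign when a library was left out ranged, with vehicle, from -0.16 to 0.23 for GPX4 and -0.0015 to 0.29 for GGT1. With ATRA they ranged from -0.69 to 0.054 for GPX3, -0.089 to 0.18 for GCLC and -0.17 to 0.024 for GCLM. With neither they ranged from -1.31 to 0.10 for GPX3, -0.091 to 0.46 for GPX4, -0.38 to 0.022 for GCLM and -0.16 to 0.59 for GGT1. For ATRA against vehicle in normoxia the ranges were -0.11 to 0.16 for GPX1, -0.077 to 0.22 for GPX2, -0.52 to 0.24 for GPX3, -0.047 to 0.17 for GPX8, -0.27 to 0.027 for GSS and -0.12 to 0.080 for GCLM, and in hyperoxia -0.24 to 0.49 for GPX3. In the interaction they were -0.22 to 0.056 for GPX1, -0.083 to 0.71 for GPX3, -0.051 to 0.061 for GSR, -0.15 to 0.16 for GSS and -0.15 to 0.041 for GCLM. For ATRA in normoxia GPX1 also gave 0.0016 with only the groups compared and 0.33 against neither, and GSS 0.039 against neither.

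The number of all genes called, 2616 with vehicle, ranged from 1420 to 4665 over settings and fell to 1386 without the second hyperoxia vehicle library. It was 1975 to 3508 with ATRA (3391), 58 to 2978 with neither (2324), 67 to 300 for ATRA in normoxia (187), 66 to 522 in hyperoxia (331) and 4 to 94 for the interaction (21). With neither it was 7364 without the second hyperoxia library, 1733 without the first, and 969 and 1393 without the first and second normoxia libraries, so the background share of that comparison rests on single libraries.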
